A study of Danio rerio with 16 samples.

Results

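The 100 most abundant transcripts of the juvenile zebrafish gonad are described here. They are the genes with the highest mean CPM (the count of a gene over the total of its library, times 1000000) over 16 mRNA sequencing libraries, and they are 100 of the 31953 genes in the count table. Their mean abundance chose them, so their high levels are a description and not a result. A CPM value is a share of reads and is not corrected for transcript length, so the order of the genes is an order of read shares and not of molecules.

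Each library was made from pooled gonads of Danio rerio offspring of a line carrying a CRISPR-Cas9 mutation of the microRNA gene miR-214, made with 2 guide RNAs and kept beyond the F3 generation, which was crossed to the germ cell reporter line Tg(vasa:eGFP). The strain label reads "mz 06de, tg(vasa:eGFP)" and the breed label TUE, whereas the growth protocol names a mix of AB and TU. In the maternal cross a homozygous mutant mother was mated to a heterozygous father, and in the paternal cross the mother was heterozygous and the father homozygous mutant. Offspring of either cross were sorted into homozygous mutants (KO) and heterozygotes (HET), which gave 4 groups of 4 pools. All fish carried at least 1 mutant copy and there was no wild-type group, so HET is the reference throughout. The HET pools were of 7 gonads each in the maternal cross and of 9 each in the paternal cross, and KO pools were of 8 or 9. Pool size therefore cannot be told apart from genotype in the maternal cross, nor from cross among HET. The sex of the pooled fish is not given in the labels, and the age is 31 days post fertilization in the titles but 27 days in another label. The study asked whether miR-214 acts on gonadal sex through gsdf. Mature miR-214 is not measured in libraries of polyadenylated RNA, so the genotype labels could not be checked on it.

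As background, growing oocytes store large amounts of RNA and protein for the embryo. They also build the egg envelope, a coat of zona pellucida glycoproteins that zebrafish oocytes secrete themselves, and young zebrafish gonads pass through a phase with oocytes before a testis forms. Transcripts that are abundant in most cells, such as those of ribosomal proteins, translation factors, actin, chaperones and the mitochondrial genome, serve general upkeep of the cell.

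Library totals were between 19.9 and 30.1 M counts, and a floor of 3 counts corresponds to 0.0996 to 0.151 CPM. All paternal-cross HET libraries, at 26.4 to 30.1 M, were deeper than every other library, the largest of which had 24.6 M. The paternal-cross KO libraries had 22.6 to 24.3 M, so depth and genotype cannot be told apart in that cross. Among HET, depth and cross cannot be told apart either. All 100 members passed the filter on low counts, as did 21683 genes in all. The lowest count of any member in any library was 17748 and the median was 46109.5, so counting error is small for every value of a member. This does not hold for marker genes at low CPM. Markers set against the labelled tissue showed oocyte RNA in every library. The summed level of 11 oocyte markers, of which 4 are members and h1m was at 0, was between 12751 and 17732 CPM. The summed level of 7 male germ cell markers was between 33.6 and 50.04 CPM. The largest part of it came from cfap20, at a mean of 19.7 CPM, whereas tssk6 and tekt1 were at 0.031 and 0.452 CPM. Markers of tissues around the gonad stood apart in a few pools. Exocrine pancreas markers summed to 10962 CPM in maternal-cross KO replicate 4 and 2299 CPM in replicate 3 of that group, against 19.3 to 724 CPM in all other libraries, and muscle markers summed to 2257 CPM in maternal-cross HET replicate 3. Liver markers summed to 268 CPM in maternal-cross KO replicate 4, against 9.46 to 52.9 CPM in all other libraries. Erythrocyte markers summed to 290 CPM in paternal-cross HET replicate 4, against 26.5 to 208 CPM in all other libraries. No gene of the lists for pancreas, muscle, liver, intestine, skin, fat, blood or leukocytes is among the members. The p-values measure only the spread between pools, which may be partly technical. In bulk libraries, fewer cells of a type and less RNA per cell cannot be told apart.

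The list was led by egg and oocyte genes and by genes with placeholder names. Of the 20 most abundant genes, 12 carry only clone-based placeholder names, 4 are egg coat genes, 1 has no symbol, and the others are 1 translation factor, 1 chaperone and 1 mitochondrially encoded gene. The most abundant was zgc:173556, at a mean of 9979 CPM, or 0.998% of all counts, and it ranked first in 15 of the 16 libraries. It was followed by zgc:152652 at 8839 CPM, zp2.5 at 8200 CPM and zpax1 at 7178 CPM. zp2.5 and zpax1 encode zona pellucida domain proteins of the egg envelope. The gene ENSDARG00000076366, which has no symbol, followed at 7142 CPM, and si:ch1073-263o8.2 at 6348 CPM and a gene with a zmp placeholder name (ENSDARG00000077741) at 6136 CPM came next. The next places were held by zgc:111868 at 5551 CPM, zp2.3 at 5350 CPM, zgc:173856 at 5236 CPM, zgc:165518 at 5092 CPM and zpax4 at 5082 CPM. zp2.3 and zpax4 are again egg envelope genes. The remaining genes of the first 20 were wu:fi42e03 at 5059 CPM, zgc:171474 at 4961 CPM, si:ch211-263m18.4 at 4789 CPM, eef1a1l1 at 4743 CPM, hspa8 at 4326 CPM, si:ch73-160p18.3 at 4276 CPM, si:ch211-146l10.8 at 4055 CPM and MT-CO1 at 3856 CPM. eef1a1l1 encodes the elongation factor that brings aminoacyl-tRNA to the ribosome, hspa8 a constitutive Hsp70 chaperone, and MT-CO1 a subunit of cytochrome c oxidase.

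**Figure D1:**
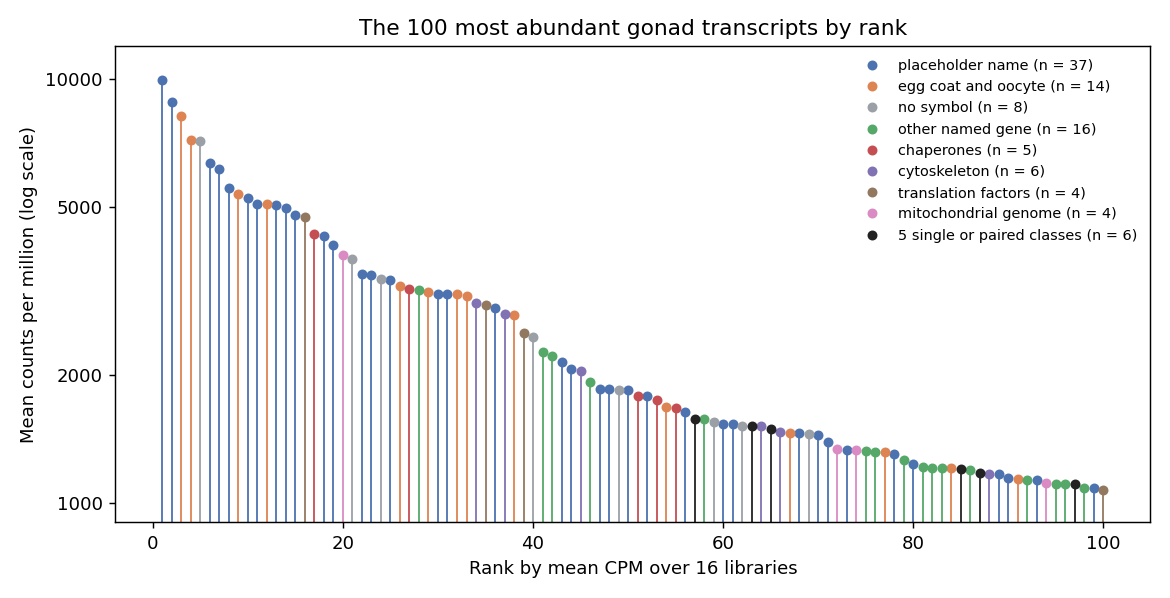
Mean CPM over the 16 libraries (log axis) against rank for the 100 most abundant genes, with colours for the functional classes. The curve runs from 9979 CPM at rank 1 to 1070 CPM at rank 100, and egg coat and placeholder genes fill most of the left end.

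The abundance falls off smoothly and the boundary of the list is not a step. The last members were zgc:173545 (ENSDARG00000079534) at 1084 CPM and tpt1 at 1070 CPM, and the first genes outside were si:dkeyp-46h3.2 at 1066 CPM and kpna7, an importin alpha, at 1063 CPM. Membership was stable for most genes. In total 74 members were in the top 100 of every library, 88 were in the top 100 of all 4 group means, and each library had 88 to 98 members in its own top 100.

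By function, the members fall into a few groups, sorted by gene name. There were 14 egg coat and oocyte genes: zp2.5, zpax1, zp2.3, zpax4, zp3a.2, zp2.1, zp3a.1, zp3b, zp3e, zp3f.1, zp2l1, CPEB1, cldnd and buc. CPEB1 binds cytoplasmic polyadenylation elements of stored mRNAs, cldnd is a claudin, and buc organises the Balbiani body of the zebrafish oocyte. The claudin cldng was sorted among the named genes outside the classes. The general upkeep genes comprised the cytoskeleton genes actb1, actb2, tubb4b, pfn2b, tuba4l and tuba8l4, the chaperones hspa8, hsp90ab1, hsp90b1, p4hb and hspa5, and the class labelled translation factors, with eef1a1l1, eef1a1l3, eef2b and tpt1. Of these, tpt1 was placed by its symbol and is not an elongation factor. The mitochondrial genome gave 4 members, namely MT-CO1, MT-CO2, MT-CO3 and MT-CYB. Single members were ddx4 (the germ cell helicase Vasa), gapdh (a glycolytic enzyme), slc25a5 (a mitochondrial ADP/ATP carrier) and rpl3 (the only ribosomal protein gene of the 86 in the table), and ncl and cirbpb are RNA-binding proteins. A further 16 members had a descriptive name outside these classes, among them retsatl, a retinol saturase-like gene, nasp, a histone chaperone, lamp2, a lysosomal membrane protein, ubc, a polyubiquitin gene, dnmt1, the maintenance DNA methyltransferase, ccna1, cyclin A1, chia.4, a chitinase, and 42sp43, which in Xenopus is a protein of the oocyte particle that stores RNA. Of the most abundant gene of each class, retsatl had 3190 CPM, actb1 2966 CPM, gapdh 1582 CPM, ncl 1518 CPM, ddx4 1203 CPM, slc25a5 1176 CPM and rpl3 1109 CPM. Placeholder names (zgc, si, wu or zmp) were carried by 37 members, and 8 had no symbol.

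Several members lie side by side in the genome. In the RefSeq gene order, 23 of the 75 members that could be placed formed 7 runs whose members were at most 4 genes apart, and these runs held 6.83% to 10.3% of all counts. The longest run had 7 members, zgc:171977, zgc:152652, si:ch211-146l10.7, zgc:171750, zgc:171474, zgc:173856 and si:ch211-146l10.8, and held 2.53% to 4.01% of counts. The zona pellucida genes zp2.3, zp2.1 and zp2.5 formed a second run with 1.41% to 2.09%. Smaller runs were zp3a.2 with zp3a.1, the 3 genes si:dkey-241l7.5, si:dkey-241l7.4 and si:dkey-241l7.3, and si:dkey-90l23.1 with zgc:171776 and si:ch1073-75o15.3. Adjacent copies with similar sequence may share reads, and how the authors' counting treated such reads is not given in the sources used here, so the value of each copy is uncertain.

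The 100 genes together accounted for 23.7% to 31.0% of counts, depending on the pool. Their share in the maternal-cross KO pools, replicates 1 to 4, was 25.3%, 27.2%, 23.8% and 23.7% (mean 25.0% ± 1.65, SD, n = 4). In the maternal-cross HET pools it was 28.4%, 27.4%, 26.5% and 28.4% (27.7% ± 0.903, SD, n = 4). In 3 of the 4 maternal-cross KO pools the share was below every HET pool, but replicate 2 lay inside the HET range. In the paternal-cross KO pools the share was 25.6%, 25.8%, 27.5% and 24.6% (25.9% ± 1.20, SD, n = 4). The paternal-cross HET pools spread widest, at 27.3%, 31.0%, 28.4% and 24.6% (27.9% ± 2.64, SD, n = 4). These 2 groups overlapped as well, since HET replicate 4 was below 3 of the 4 KO pools. The Wilson 95% interval of any single share reached at most 0.0187 percentage points to either side, and covers counting error only. No p is given for these shares, because the members were chosen on their abundance in the same libraries. The group means differed by -2.65 percentage points in the maternal cross and -1.998 in the paternal cross (KO minus HET). The paternal-cross difference was -0.941 without HET replicate 2 and -3.07 without HET replicate 4, and the maternal-cross difference ran from -3.39 to -2.20 when 1 of its pools was left out.

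The concentration of counts in few genes varied between pools. The 10 most abundant genes held 5.86% to 8.71% of a library, and the first 50% of counts came from between 475 and 796 genes. In each of the 4 groups, the pool with the highest member share was the pool with the lowest share of the 4 mitochondrial members, and the pool with the lowest member share had the highest mitochondrial share. The pool with the lowest member share also had the highest leukocyte marker level in 3 of the 4 groups. Both shares are parts of the same library total, and this is a description of 16 pools.

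**Figure D2:**
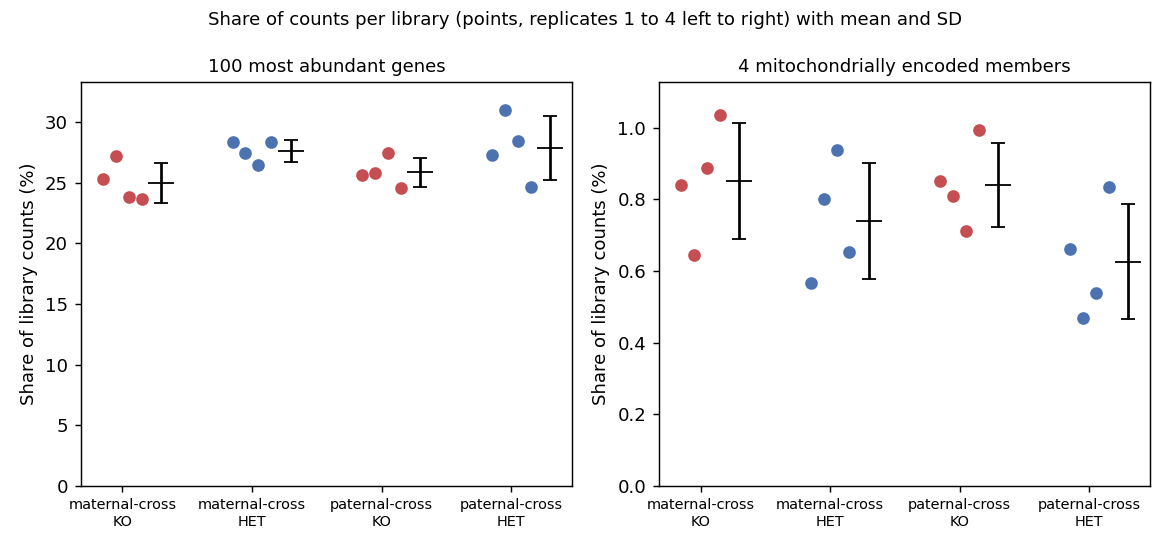
Share of library counts (%) held by the 100 most abundant genes (left) and by the 4 mitochondrially encoded members (right), 1 point per pool with replicates 1 to 4 from left to right in each group, and the group mean with SD beside them (KO red, HET blue). The member share lies between 23.7% and 31.0% and the groups overlap in both crosses.

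Egg coat and oocyte genes made up the largest named class in read share. The 14 members held 4.49% ± 0.350 of counts in maternal-cross KO, 5.07% ± 0.137 in maternal-cross HET, 4.57% ± 0.239 in paternal-cross KO and 5.06% ± 0.478 in paternal-cross HET (SD, n = 4 each). Genes with placeholder names held 10.9% ± 1.09, 12.4% ± 0.833, 11.4% ± 0.847 and 12.8% ± 1.82 in the same order, and the 8 genes without a symbol held 2.17% to 2.45% as group means. The 4 mitochondrially encoded members had the opposite order, with 0.851% ± 0.161 and 0.739% ± 0.163 in maternal-cross KO and HET, and 0.841% ± 0.118 and 0.626% ± 0.161 in paternal-cross KO and HET. Between paternal-cross KO and HET, other named genes held 2.32% and 2.59%, gapdh 0.152% and 0.170%, slc25a5 0.124% and 0.106%, and rpl3 0.118% and 0.104%. The paternal-cross pools of rpl3 overlapped, at 0.111% to 0.130% in KO and 0.0977% to 0.113% in HET. Between maternal-cross KO and HET, other named genes held 2.32% and 2.51%, gapdh 0.146% and 0.165%, slc25a5 0.119% and 0.122%, and rpl3 0.112% and 0.110%. Group means of chaperones ranged from 1.23% to 1.31%, of the translation class (with tpt1) from 1.09% to 1.19%, and of cytoskeleton genes from 1.14% to 1.24%.

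**Figure D3:**
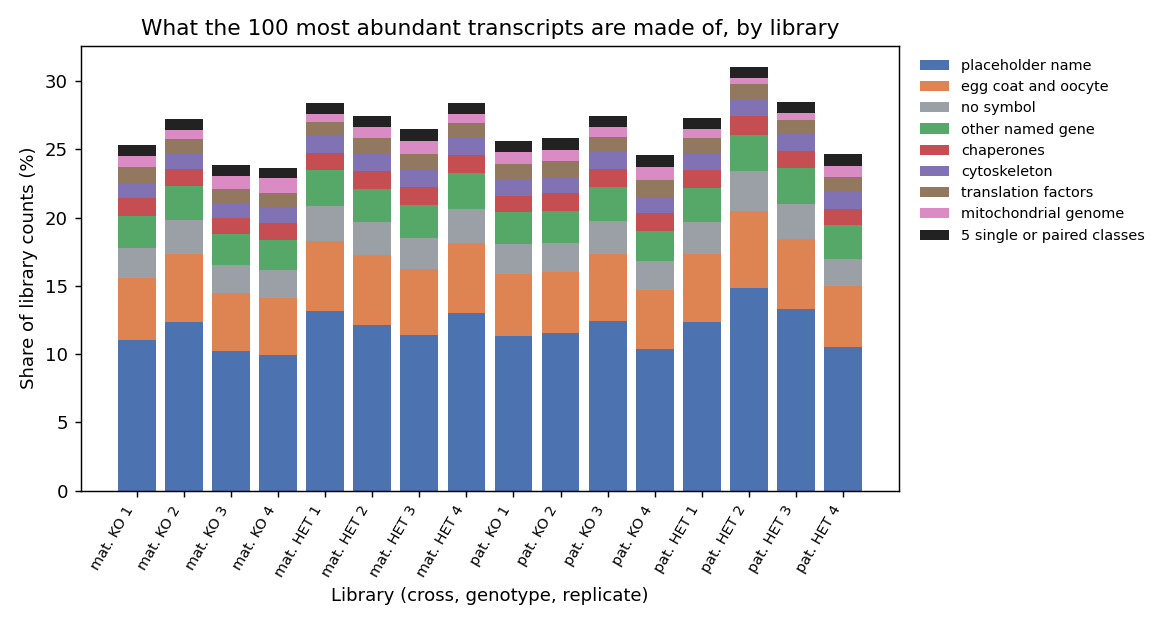
Share of library counts (%) by functional class of the members in each of the 16 pools. Placeholder genes (9.94% to 14.9%) and egg coat and oocyte genes (4.18% to 5.66%) form the widest bands in every pool.

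Pools of one group agreed better for these genes than for genes at large, most of which have far lower counts. The spread of genes of like abundance was not compared. The log2 CPM used for this spread was normalized between libraries by TMM, unlike the CPM values printed elsewhere. On that scale the median within-group SD was 0.179 for the members and 0.242 for all genes tested. The steadiest members on that scale were upkeep genes, namely cirbpb at 0.047, slc25a5 at 0.055, actb2 at 0.067, eef1a1l1 at 0.068 and rpl3 at 0.071. This order depends on the scaling. In plain CPM the maternal-cross HET pools read 4318, 4881, 5519 and 4334 for eef1a1l1. For ccng1, named here after its values were seen, they read 1191, 1185, 1156 and 1188. The most variable were placeholder genes, namely si:ch73-160p18.3 at 0.426, zgc:171977 at 0.373, si:dkey-229d11.3 at 0.334, zgc:173770 at 0.314 and si:ch211-263m18.4 at 0.309. For si:ch73-160p18.3 the paternal-cross HET pools read 5227, 6088, 5758 and 2607 CPM, with replicate 4 far below the other pools of the group. For cirbpb, a cold-inducible RNA-binding protein, the same pools read 1464, 1349, 1329 and 1552 CPM.

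**Figure D4:**
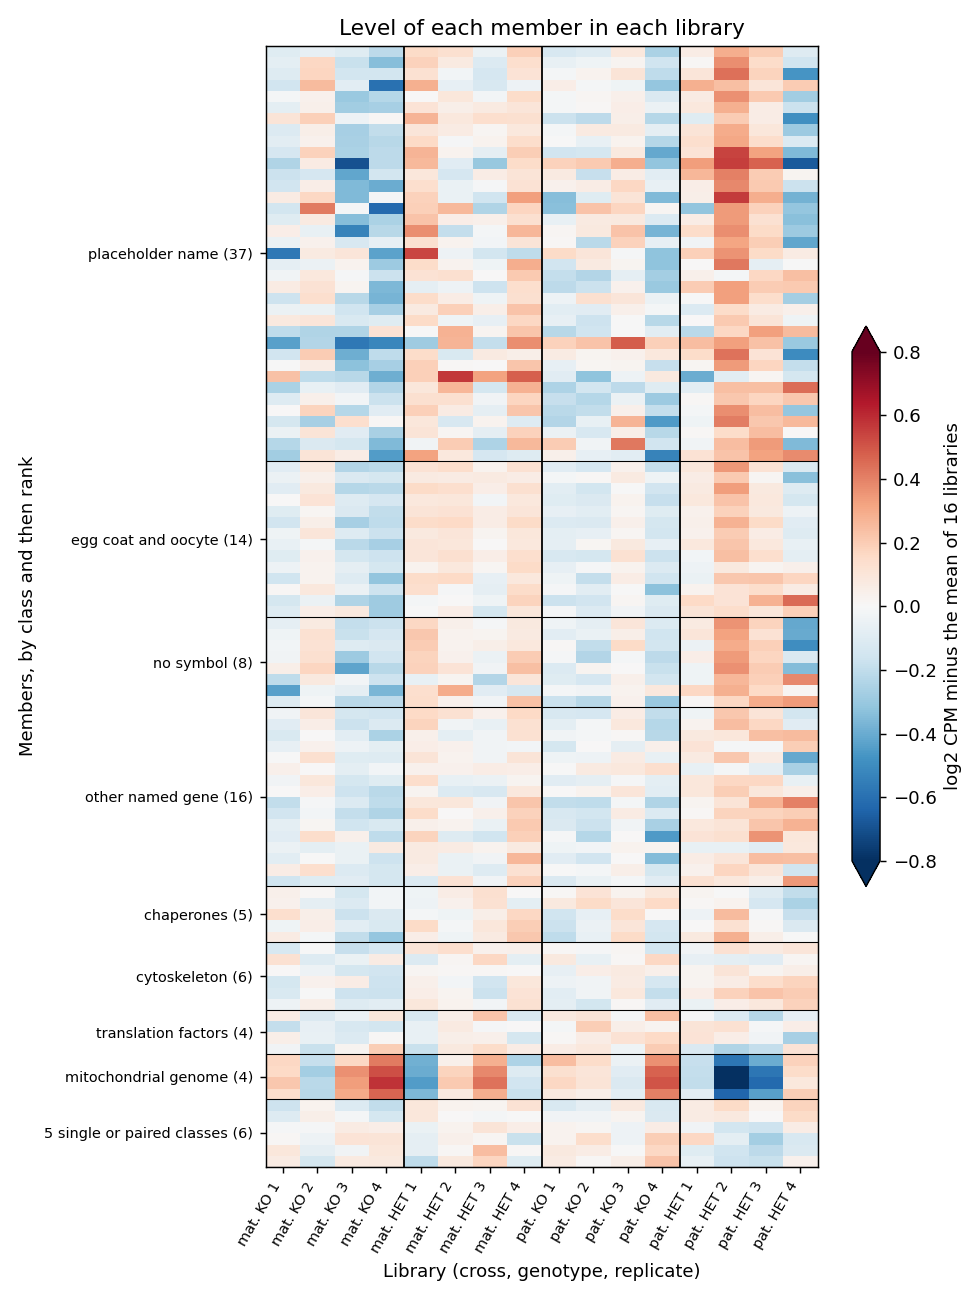
Heat map of the members (rows, ordered by class) in the 16 pools (columns), coloured by log2 CPM relative to the mean of the row. Paternal-cross HET replicate 2 is high in most rows and low in the mitochondrial rows, maternal-cross KO replicate 4 is the reverse, and paternal-cross HET replicate 4 is low in many placeholder rows.

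In the paternal cross, 33 of the 100 genes fell in KO gonads and 0 rose (edgeR's quasi-likelihood test, Benjamini-Hochberg adjusted p under 0.05 over all genes tested). Among all 21683 genes tested, 9.14% fell and 14.1% rose, or 23.2% in either direction. Beside genes of like abundance the count was not set apart: of the next 100 genes by abundance 49 fell and 2 rose, and of the 300 after those 81 fell and 9 rose. The median log2 fold change of the members was -0.29, against 0.02 for all genes tested, and 90 of the 100 were below 0. The falls were small, with log2 fold changes from -0.56 to -0.27 and a median of -0.38. The count was 19 under upper-quartile normalization and 51 with DESeq2, and it depended on single pools. It was 7 without KO replicate 4, 9 without HET replicate 3, 12 without HET replicate 2, 14 without KO replicate 2, 16 without KO replicate 1 and 50 without KO replicate 3. The calls over all genes moved as well, from 5034 to 1026 without KO replicate 4 and 1286 without HET replicate 3, while the median log2 fold change of the members was -0.24 and -0.26. Over all single omissions that median ran from -0.37 without HET replicate 4 to -0.19 without HET replicate 2. The count was 24 without maternal-cross KO replicates 3 and 4, the pools with the most pancreas RNA, an alternative chosen after seeing the data.

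Egg coat and oocyte genes were among those that fell. Of the 14 members, zp2.5, zp2.3, zp3a.2, zp2.1, zp2l1, CPEB1, cldnd and buc fell in the paternal cross, 8 in all, and the class median was a log2 fold change of -0.33. This count was 2 under upper-quartile normalization and 13 with DESeq2. In the whole table, 24 of 45 tested genes of this class fell and 0 rose. For zp2.5 the KO pools read 7654, 7442, 8358 and 7128 CPM and the HET pools 8691, 10378, 8837 and 7541 CPM. The groups overlapped through KO replicates 1 and 3 and HET replicate 4, and the log2 fold change was -0.37 ± 0.13 (SE) with an edgeR adjusted p of 0.0464. For cldnd, a claudin of tight junctions, the KO pools read 1061, 1074, 1209 and 1121 CPM and the HET pools 1336, 1289, 1451 and 1635 CPM. All HET pools were above all KO pools, and the log2 fold change was -0.51 ± 0.10 with an edgeR adjusted p of 0.00812. The 6 other members of the class had log2 fold changes of -0.15 to -0.32 and did not pass.

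Of the 16 named genes outside the classes, 9 fell in the paternal cross: lamp2, ubc, chia.4, cldng, crp2, ccna1, dnmt1, ctss2.1 and 42sp43. Over the whole table, 1546 of 15754 tested genes of this kind fell and 2325 rose. For cldng, another claudin, the KO pools read 1047, 1045, 1189 and 1016 CPM and the HET pools 1224, 1294, 1459 and 1594 CPM. Every HET pool was above every KO pool, and the log2 fold change was -0.53 ± 0.11 with an edgeR adjusted p of 0.00927. For ccna1, which drives entry into division, the KO pools read 1111, 1069, 1182 and 1007 CPM and the HET pools 1276, 1292, 1403 and 1459 CPM, also without overlap. Its log2 fold change was -0.47 ± 0.10 with an edgeR adjusted p of 0.0100.

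Of the 37 genes with placeholder names 10 fell, and of the 8 without a symbol 2 fell. Over the whole table, 256 of 3358 tested genes with placeholder names fell and 422 rose. Of 1567 tested genes without a symbol 62 fell and 192 rose. Among the members of these 2 classes none rose. The largest fold change belonged to zgc:173545 (ENSDARG00000079534), at 1096, 1020, 1006 and 738 CPM in KO and 1157, 1249, 1336 and 1384 CPM in HET. KO replicate 4 was low, the groups did not overlap, and the log2 fold change was -0.56 ± 0.16 with an edgeR adjusted p of 0.0247. This call was lost in 4 of 25 alternative settings. si:ch211-226h8.14 read 1111, 1192, 1140 and 1230 CPM in KO and 1243, 1555, 1557 and 1795 CPM in HET, a log2 fold change of -0.55 ± 0.13 with an edgeR adjusted p of 0.0109. si:dkey-90l23.1 read 1585, 1627, 1878 and 1494 CPM in KO and 2112, 2307, 2110 and 2127 CPM in HET, with no overlap. Its log2 fold change was -0.55 ± 0.13 with an edgeR adjusted p of 0.0128, and its neighbours zgc:171776 and si:ch1073-75o15.3 fell as well. ENSDARG00000089516 fell by 0.52 ± 0.12 on the log2 scale (edgeR adjusted p 0.0123), and both this gene and si:dkey-90l23.1 lost their call without KO replicate 4. The most abundant gene, zgc:173556, read 9060, 9247, 10534 and 8323 CPM in KO and 10355, 12132, 11366 and 9228 CPM in HET, with overlap, and its log2 fold change was -0.37 ± 0.13 with an edgeR adjusted p of 0.0471.

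Upkeep genes were mostly not called in the paternal cross. The cytoskeleton genes tuba4l and tuba8l4 fell, as did gapdh (log2 fold change -0.32 ± 0.10, edgeR adjusted p 0.0303) and ncl, the nucleolar protein nucleolin (-0.27 ± 0.09, edgeR adjusted p 0.0380). None of the 5 chaperones, 4 genes of the translation class and 4 mitochondrial members passed, nor did ddx4, slc25a5 or rpl3. MT-CO1 read 4488, 4187, 3666 and 4872 CPM in KO and 3325, 2536, 2876 and 4299 CPM in HET, and HET replicate 4 overlapped the KO range. Its log2 fold change was 0.25 ± 0.14 with an edgeR adjusted p of 0.185. On the TMM scale eef1a1l1 had a log2 fold change of 0.05 ± 0.07, and ddx4 of -0.00 ± 0.08. In plain CPM, without TMM scaling, the groups did not overlap in 15 members lower in KO, against 3% of all genes. On that scale 3 members were higher in KO without overlap, against 21.3% of all genes. KO reads higher in plain CPM than on the TMM scale, on which 48.4% of all genes were below 0. These shares of all genes therefore depend on the scaling. The 3 higher members were hsp90ab1, HDLBP and slc25a5, named here after their values were seen, and none of them passed the test.

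Marker genes of other gonad cells moved in the same comparison. The sums below are in plain CPM, in which KO reads higher than on the TMM scale of the calls. The summed level of 6 Sertoli and granulosa markers was 330 to 654 CPM in paternal-cross KO and 139 to 246 CPM in HET, and 4 of the 6 rose. That of 9 leukocyte markers was 409 to 810 CPM against 177 to 329 CPM, and 7 of the 9 rose. Only 6 of 10 listed Sertoli and granulosa symbols matched a gene. Most of that sum came from gsdf, the gene the study asked about, at a mean of 232 CPM over all libraries. Most of the leukocyte sum came from cd74a and cd74b, at means of 171 and 111 CPM. These 2 sums are therefore largely readings of these genes and not of a whole cell type. The oocyte list summed to 13616 to 15184 CPM in KO and 15191 to 17732 CPM in HET, and 9 of its 10 tested genes fell. Most of this sum came from the 4 of the list that are members, so it is not separate from the member values. These were zp2.3, zp2.1, zp3b and buc, at means of 5350, 3145, 3081 and 1138 CPM. In plain CPM, fat markers (89.8 to 174 against 44.9 to 81.7 CPM) and Leydig and theca markers (268 to 319 against 235 to 249 CPM) did not overlap either. The gap between the Leydig and theca ranges is narrow and may not hold on the TMM scale, which was not tested for these sums. Of the 5 tested fat genes 3 rose and 0 fell, and of the 5 tested Leydig and theca genes 3 rose and 1 fell. The germ cell list overlapped, at 3957 to 4525 CPM in KO and 3476 to 4351 CPM in HET. On the TMM scale 2 of its 8 genes fell and 0 rose. The part of these differences in the lower levels of the members was not tested.

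**Figure D5:**
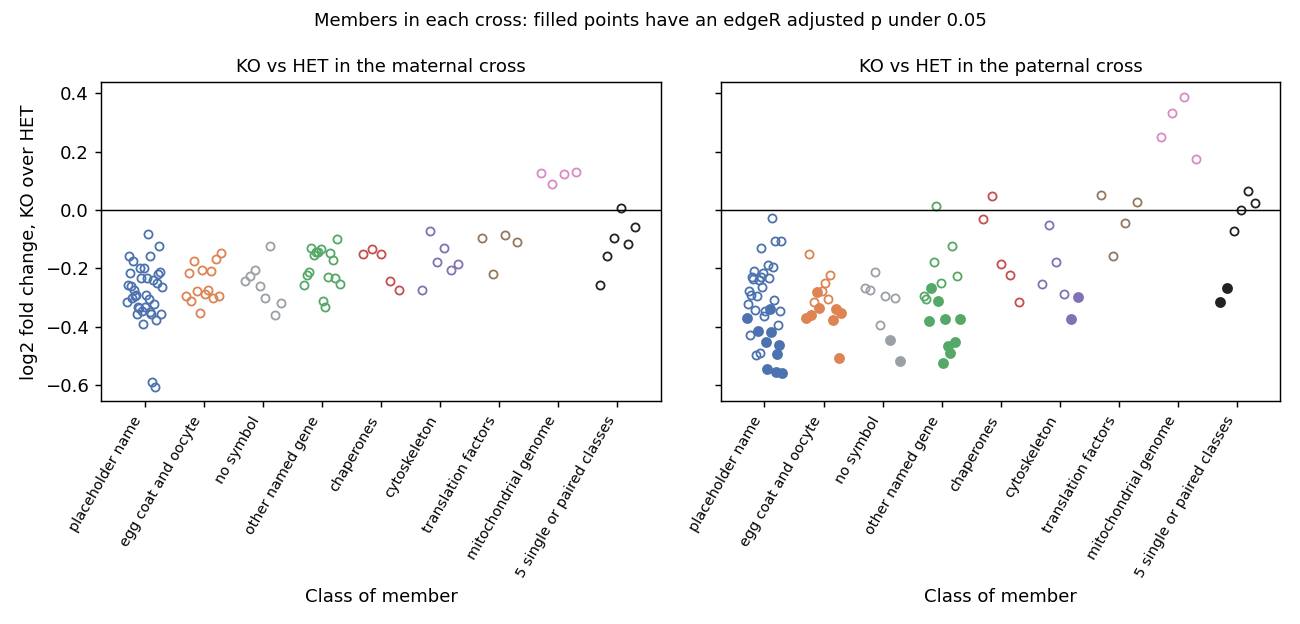
Log2 fold change KO against HET of each member by functional class, in the maternal and the paternal cross, with genes past an adjusted p of 0.05 filled. Egg coat and oocyte, placeholder and other named genes lie below 0 in both crosses except HDLBP, at 0.01 in the paternal cross, and the 4 mitochondrial genes lie above 0 in both.

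In the maternal cross, 0 of the 100 genes passed the edgeR test, against 0.198% of all genes tested. At an unadjusted p under 0.05 there were 38 members, against 8.91% of all genes. That number was 14 without HET replicate 4, 15 without KO replicate 4, 18 without HET replicate 1 or KO replicate 3, 24 without KO replicate 1 and 65 without KO replicate 2. It was 2 without KO replicates 3 and 4, the pools with the most pancreas RNA. DESeq2 called 1 member, si:dkey-241l7.4, named here after its values were seen. It read 1608, 1187, 1172 and 1044 CPM in KO and 1561, 2021, 1705 and 1902 CPM in HET, overlapping through KO replicate 1, and its edgeR log2 fold change was -0.61 ± 0.14 with an adjusted p of 0.0998. The median log2 fold change of the members was -0.23, against -0.00 for all genes, and 95 of the 100 were below 0, against 50.5% of all genes. Genes of like abundance were low too, with 92 of the next 100 and 256 of the 300 after those below 0. The median of the members was -0.13 without KO replicates 3 and 4. The 5 above 0 were the 4 mitochondrial genes and ddx4, whose 0.01 turned to -0.01 with DESeq2 size factors. In plain CPM, without TMM scaling, the groups did not overlap in 14 members lower in KO, against 0.904% of all genes. The 33 genes that fell in the paternal cross had a maternal-cross median of -0.25, and all 33 were below 0. For cldnd the maternal-cross KO pools read 1087, 1157, 1013 and 982 CPM and the HET pools 1186, 1197, 1168 and 1353 CPM, without overlap, with a log2 fold change of -0.30 ± 0.10 and an edgeR adjusted p of 0.347. For zp2.1, an egg envelope gene, they read 2814, 3236, 2602 and 2711 CPM and 3459, 3490, 3263 and 3482 CPM, also without overlap, with a log2 fold change of -0.35 ± 0.12 and an edgeR adjusted p of 0.324.

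The difference between the crosses was tested directly. In the interaction of genotype and cross, 0 members passed the edgeR test, against 0.189% of all genes, 3 had an unadjusted p under 0.05, against 18.3% of all genes, and DESeq2 called 0. The calls in the paternal cross alone do not show that the members responded differently in the 2 crosses.

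Averaged over both crosses, 44 of the members fell in KO and 0 rose, against 4.04% and 8.19% of all genes, or 12.2% in either direction (edgeR, adjusted p under 0.05). Of the next 100 genes by abundance, 44 fell as well and 2 rose. This comparison uses the libraries of both previous ones, so it is not independent of them. The egg coat and oocyte class had 12 of its 14 members among them, all except zpax1 and zpax4. Placeholder genes had 13 of 37, other named genes 8 of 16, genes without a symbol 4 of 8 and cytoskeleton genes 3 of 6, and hspa5, ncl, gapdh and eef1a1l3 were the others. The largest were si:ch211-226h8.14 at -0.47 ± 0.09 (edgeR adjusted p 0.0115), cldng at -0.42 ± 0.08 (0.0115), ENSDARG00000089516 at -0.42 ± 0.09 (0.0150), zgc:173545 (ENSDARG00000079534) at -0.41 ± 0.12 (0.0335), cldnd at -0.40 ± 0.07 (0.0104) and zgc:173545 (ENSDARG00000092026) at -0.39 ± 0.09 (0.0205). The count was 68 with DESeq2, and it moved with single pools in both directions. Without maternal-cross KO replicates 3 and 4, the pools with the most pancreas RNA, it was 0, and calls over all genes went from 2653 to 55. The median log2 fold change of the members was then -0.21, against -0.27 with all pools, and 48 members had an unadjusted p under 0.05. Leaving out 1 pool gave 11 without maternal-cross KO replicate 4 or paternal-cross HET replicate 3, 12 without maternal-cross HET replicate 4 or paternal-cross KO replicate 4, 17 without maternal-cross HET replicate 1 or maternal-cross KO replicate 1, 21 without paternal-cross HET replicate 2 or paternal-cross KO replicate 1, 25 without maternal-cross KO replicate 3 and 26 without paternal-cross KO replicate 2, and it was 66 without maternal-cross KO replicate 2.

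Few of the most abundant genes differed between the crosses. Among HET, cross cannot be told apart from pool size or depth. Comparing KO gonads of either cross, 0 members passed the edgeR test, against 1.59% of all genes, and 2 had an unadjusted p under 0.05, against 15.6% of all genes. DESeq2 called 1, zgc:171426, named after its values were seen. It read 1102, 1269, 1004 and 1039 CPM in maternal-cross KO and 1695, 1744, 2088 and 1701 CPM in paternal-cross KO, with no overlap, and its edgeR log2 fold change (maternal minus paternal) was -0.70 ± 0.18 with an adjusted p of 0.0542. It passed edgeR without maternal-cross HET replicate 3 or 4, maternal-cross KO replicate 2 or paternal-cross HET replicate 4. Among HET, 0 members passed the edgeR test, against 3.92% of all genes, 6 had an unadjusted p under 0.05, against 25.9% of all genes, and DESeq2 called 1, si:dkey-241l7.4 (edgeR log2 fold change 0.47 ± 0.14, adjusted p 0.0608). The median log2 fold changes of the members were -0.02 among KO and -0.07 among HET.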

How the data were processed

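RNA of 16 pools of gonads was measured by stranded polyA mRNA sequencing on 1 flow cell (single reads of 84 cycles, per the labels' protocols). The authors deposited raw counts per Ensembl gene. The submitters' processing notes name STAR 2.4.1d, featureCounts 1.4.6, DESeq2 and danRer10, with no role or order; the annotation and strand setting are not given in the sources used here. All 16 columns matched a sample title, and 0 were left out. Replicate numbers come from the titles, and the design text calls the pools biological replicates.

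CPM was count / column sum × 1000000, and members are the 100 genes with the highest mean. Names came from a gene name table by Ensembl identifier (26121 of 31953 genes, 92 of 100 members); RefSeq (a newer assembly) served for spelling and gene order, and no coordinates or sequences are printed. Classes were assigned by symbol. Members and lists were chosen with earlier results of these data known.

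Genes were filtered with filterByExpr (minimum count 10), normalized by TMM and tested with edgeR 4.0.16 (R 4.3.3) quasi-likelihood fits, 1 coefficient per group over all 16 libraries, adjusted by Benjamini-Hochberg over 21683 genes at 0.05. Standard errors were derived from F (absolute log2 fold change over its square root). Simulated data with 200 changed genes gave 130 recovered and 8 false calls at 2-fold, and 56 recovered at 1.5-fold, in the paternal comparison. DESeq2 1.42.0 was an alternative, with other scalings, filters, list sizes, a replicate block and each pool left out. Named genes are the 20 most abundant, the top gene of each class, up to 6 with the largest called changes per comparison and direction, the 5 steadiest and 5 most variable, those at the list boundary and the 3 most abundant outside any class; zp2.1, ccna1 and further members listed by class were named after their values were seen.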

Additional observations from a re-analysis of the deposited data

Results flagged for a closer look

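In 5 of 120 sets of 4 pools examined, 1 pool lay far from the other 3 by Dixon's gap rule. Chance gives about 1 in 20, or 6 of the 120. The sets were, by group, the CPM of part of the named genes and shares of counts, among them that of each class. Most named genes, zp2.1 among them, were not examined in this way. In maternal-cross KO replicate 2, rpl3, the single ribosomal protein member, held 0.1001% of counts against 0.116% to 0.117% in the other pools. The gene zgc:173545 (ENSDARG00000092026) read 1648 CPM in maternal-cross KO replicate 4 against 1284 to 1321 CPM. The egg coat and oocyte share in maternal-cross HET replicate 3, the pool with the highest muscle marker level, was 4.86% against 5.12% to 5.15%. cldnd read 1353 CPM in maternal-cross HET replicate 4 against 1168 to 1197 CPM. si:dkey-90l23.1 read 2307 CPM in paternal-cross HET replicate 2 against 2110 to 2127 CPM.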

How the results depend on the processing

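None of the genes named for a called change reversed direction under any alternative run, whereas ddx4, near 0, changed sign with the scaling. In the paternal cross, cldng, cldnd and si:ch211-226h8.14 kept their calls under all 25 settings. The number of members called moved from 33 (paternal) and 44 (average) to 51 and 68 with DESeq2, to 10 and 19 for a list of 50 genes, and to 84 and 90 for a list of 200. It was 19 in the paternal comparison under upper-quartile normalization. DESeq2 called 1 member in KO against HET of the maternal cross, 1 between crosses among KO and 1 between crosses among HET. Upper-quartile normalization called 1 in each of the comparisons between crosses, a fit of only the groups compared called 1 among KO, and a list of 200 genes gave 1 among HET. Leaving out 1 pool gave 7 to 50 calls in the paternal cross, 11 to 66 in the average and 0 to 1 between crosses among KO. Leaving out maternal-cross KO replicates 3 and 4 (chosen after seeing the data) gave 0 in the average. The cause of these moves was not tested, except that shorter or longer lists hold fewer or more genes.

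Under a replicate block, 21 members were called in the paternal cross and 22 in the average. Same-numbered pools correlated between -0.412 and 0.301 in their deviations, which does not show a pairing. Differently numbered pools were not compared, so whether the numbers pair the pools is not settled.

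In KO and HET of the maternal cross and then of the paternal cross, the member share was 18.6%, 20.7%, 19.3% and 20.8% for 50 genes, 32.7%, 35.7%, 33.5% and 36.2% for 200, and 19.8%, 21.9%, 20.5% and 22.1% without the 10 most abundant. Without mitochondrial genes in the denominator, cytoskeleton genes held 1.23% of maternal-cross HET, and RNA-binding genes 0.310% of maternal-cross HET and 0.302% of paternal-cross KO. All 104 alternative values of the differences in share moved by under 1 SD between pools. Most of them leave out 1 pool of 4, which can hardly move a difference by that much. For those runs the rule therefore says little about stability. In the paternal cross, leaving out 1 pool gave -3.07 to -0.941 percentage points. Without paternal-cross HET replicate 2 or 4 some small differences changed sign (0.861 between crosses among HET and 0.414 for the interaction). With at least 17748 counts per member and pool, counting error does not limit these values, but the number of pools does.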
